A study of Homo sapiens with 9 samples.

Results

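Hep3B, an established human liver cancer line with hepatocyte features, was exposed to an agent labelled DHE at a high and at a low dose, and the polyadenylated RNA of the 2 libraries was compared. The members are the 2 libraries titled DHE high and DHE low, chosen by those titles, out of 9 libraries in the series. Both libraries are labelled hypoxia and 6 h. The labels give no concentration for either dose. The other 7 libraries are a DMSO library of the same dose set, not used here, and a replicated set under the same hypoxia label with 3 DMSO and 3 DHE libraries, whose DHE dose the labels do not give. All 9 carry the hypoxia label, so hypoxia is common to every value given here. With 1 library per dose the differences have no replicate check, no p-value is given for them, and dose cannot be told apart from any other difference between the 2 libraries. In bulk RNA, fewer cells of a kind and less RNA per cell cannot be told apart either.

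Cells low in oxygen stabilise the HIF transcription factors, which switch on genes of glycolysis, blood supply and matrix remodelling. A separate programme, the integrated stress response, raises the transcription factor ATF4 when amino acids run short, haem is lacking or unfolded protein builds up, and ATF4 drives genes of amino acid synthesis, amino acid import and tRNA charging. Hepatocytes are known for the plasma proteins and lipoproteins that they secrete, under control of factors such as HNF4A and CEBPA. Peptidylarginine deiminases convert arginine in proteins to citrulline, and the series title concerns citrullination and HIF-1A.

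Of 42 gene lists, 2 had the medians farthest from that of all genes. All 34 measured genes of the ATF4 integrated stress response were lower in DHE high than in DHE low, 26 of them by at least 1.5-fold. All 29 measured secreted hepatocyte proteins were higher in DHE high, 19 of them by at least 1.5-fold. Cholesterol synthesis genes were lower in DHE high in 25 of 26 cases by smaller folds. HIF target genes outside glycolysis differed in both directions, with a median near 0.

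Promoter sequences of 2 stress response genes, 1 secreted hepatocyte gene (ALB) and 1 fetal liver gene (AFP) are printed. Each gene lay at least 1.5-fold apart between the libraries, and each window holds a motif tied to its group. The windows are RefSeq sequences of GRCh38.p14, from 250 bases before to 50 bases after the annotated start. Only that start was searched, and any other start of the same gene, which may be the one in use, was not. The capitals in the first pair mark the letters TGATGNAA on either strand, the CARE motif that dimers of ATF4 and a C/EBP protein are known to bind. CHAC1 lies at chr15:40953221-40953520 on the plus strand and ATF3 at chr1:212565157-212565456 on the plus strand.
CHAC1: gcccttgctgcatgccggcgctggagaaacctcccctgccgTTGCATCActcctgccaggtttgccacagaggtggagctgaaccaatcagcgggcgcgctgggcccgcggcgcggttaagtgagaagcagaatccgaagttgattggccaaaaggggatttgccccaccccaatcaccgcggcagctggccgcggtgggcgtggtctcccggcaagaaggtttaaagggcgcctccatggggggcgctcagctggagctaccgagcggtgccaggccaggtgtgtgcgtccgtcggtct
ATF3: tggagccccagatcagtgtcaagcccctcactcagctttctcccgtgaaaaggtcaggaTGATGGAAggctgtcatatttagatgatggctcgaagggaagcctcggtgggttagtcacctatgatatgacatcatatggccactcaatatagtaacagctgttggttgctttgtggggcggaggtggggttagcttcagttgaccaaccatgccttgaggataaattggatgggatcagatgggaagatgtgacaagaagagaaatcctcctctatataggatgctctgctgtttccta
The capitals in the second pair mark the letters GTTAATNAT, a motif known from liver promoters, again searched on both strands. AFP lies at chr4:73435971-73436270 and ALB at chr4:73404037-73404336, both on the plus strand, where the albumin and alpha-fetoprotein genes are neighbours.
AFP: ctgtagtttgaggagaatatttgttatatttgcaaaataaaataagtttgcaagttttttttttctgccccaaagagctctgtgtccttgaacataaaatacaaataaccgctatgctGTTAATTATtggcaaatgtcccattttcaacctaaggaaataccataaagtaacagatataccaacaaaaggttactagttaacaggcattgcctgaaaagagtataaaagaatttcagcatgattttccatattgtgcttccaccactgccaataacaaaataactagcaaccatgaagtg
ALB: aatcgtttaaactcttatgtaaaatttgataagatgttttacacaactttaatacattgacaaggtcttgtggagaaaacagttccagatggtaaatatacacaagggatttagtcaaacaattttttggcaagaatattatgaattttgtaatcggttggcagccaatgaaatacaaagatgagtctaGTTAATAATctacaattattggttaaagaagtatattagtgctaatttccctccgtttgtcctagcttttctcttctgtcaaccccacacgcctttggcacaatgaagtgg
The CARE letters were present in 8 of the 29 windows found for the 34 measured stress response genes (27.6%), against 1.66% of the windows of 10442 measured genes and 3.67% of all 27305 windows. The 8 genes, all at least 1.5-fold lower in DHE high, were CHAC1, FGF21, ATF3, SLC3A2, ASNS, SLC7A1, CARS1 and AARS1. Of the 29 windows, 23 belonged to genes at least 1.5-fold lower in DHE high. The letters GTTAATNAT were present in 4 of the 38 windows found for the 58 measured secreted, lipoprotein and fetal liver genes (10.5%), against 0.45% of measured genes and 0.751% of all windows. Those 4 genes, AFP, FGA, ALB and LIPC, were each at least 1.5-fold higher in DHE high. Of the 38 windows, 19 belonged to genes at least 1.5-fold higher in DHE high. Whether a motif goes with a fold was not tested. Members with no window were not searched. The lists group genes by known biology and each motif is tied to its group, so these shares say nothing about the 2 libraries. A match is a description of the sequence and not a site shown to be bound. Neither motif contains the other.

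DHE high held 25508263 counts and DHE low 22167516, so that the 3 counts that a count of 0 allows equal 0.12 and 0.132 CPM, the unit of counts scaled to TMM-adjusted library size used throughout. Ribosomal RNA took 2.26% and 1.72% of counts, and the 10 most abundant genes took 9.07% and 7.15%. Hepatocyte markers were present in both libraries, with HNF4A, a hepatocyte transcription factor, at 248 CPM in DHE high and 175 in DHE low. Of the leukocyte list 6 of 14 genes were measured, with a summed level of 116 CPM in DHE high and 82.8 in DHE low, nearly all of it LYZ and CD68, while PTPRC, the pan-leukocyte marker, had 4 counts and 0. Of the endothelial list 1 of 12 genes was measured, with sums of 3.81 and 3.22 CPM and CDH5, KDR, VWF, TEK, ERG and EMCN at 0 in both. Of the fibroblast list 5 of 13 genes were measured, with sums of 40.1 and 57.0 CPM, mostly LUM, and ACTA2, DCN, DES and POSTN at 0 in both. Of the cholangiocyte list 10 of 12 genes were measured, with sums of 1520 and 1388 CPM, carried by KRT19, EPCAM and SLC4A2, and KRT7 had 4 and 2 counts.

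Of 26475 genes, 13169 had at least 20 counts in 1 of the 2 libraries and were kept. The median log2 ratio of DHE high over DHE low was -0.00. A total of 737 genes (5.6%) were at least 1.5-fold higher in DHE high and 674 (5.12%) were at least 1.5-fold lower. The counts given below for each gene list are to be read beside these shares. At 2-fold the counts were 245 higher (1.86%) and 214 lower (1.63%). The exact 95% binomial interval of the fold, which covers counting error only, lay wholly past 1.5-fold for 282 genes higher and 248 lower in DHE high.

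Replicates of the other set give a measure of how far 2 libraries of one group differ. Among all kept genes, 10.7% differed by at least 1.5-fold either way between DHE high and DHE low, against 6.02 to 7.63% in the 6 pairs of replicates. At 2-fold the share was 3.49%, against 1.96 to 3.37%, so that at this fold the dose pair lay just above the replicate range. Many of these genes have few counts. Among genes with at least 500 counts in 1 library of a pair, a minimum chosen after the data were seen, 397 of 7630 (5.20%) differed by at least 1.5-fold between the doses, against 0.134 to 0.898% between replicates. The libraries come from another set, so the ranges are a yardstick and not a test.

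**Figure D1:**
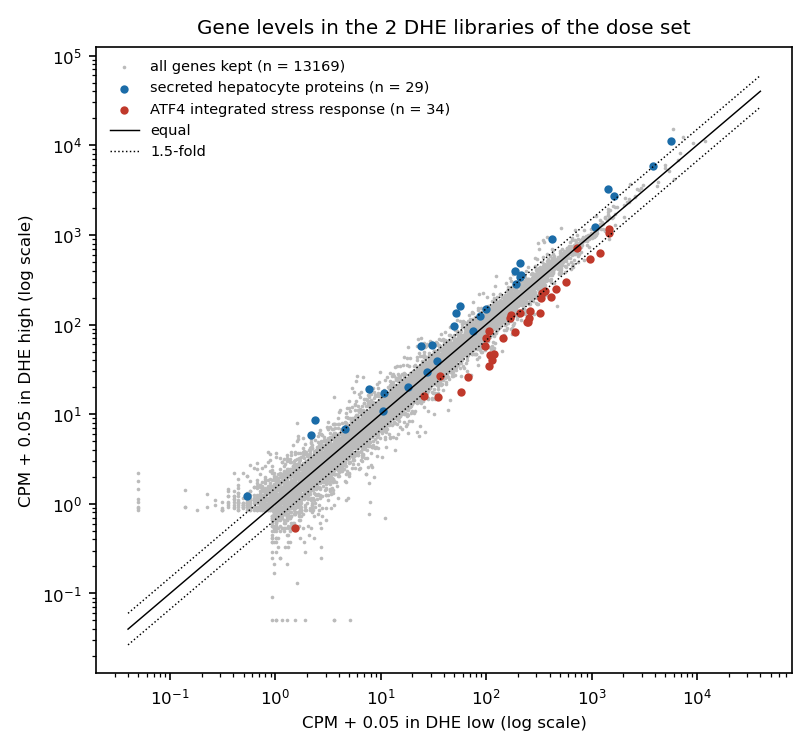
Each point is 1 of 13169 genes, at its CPM in DHE low (horizontal) and in DHE high (vertical), both axes on a log scale after adding 0.05. The 34 stress response genes (red) lie below the line of equality and the 29 secreted hepatocyte genes (blue) lie above it.

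**Figure D2:**
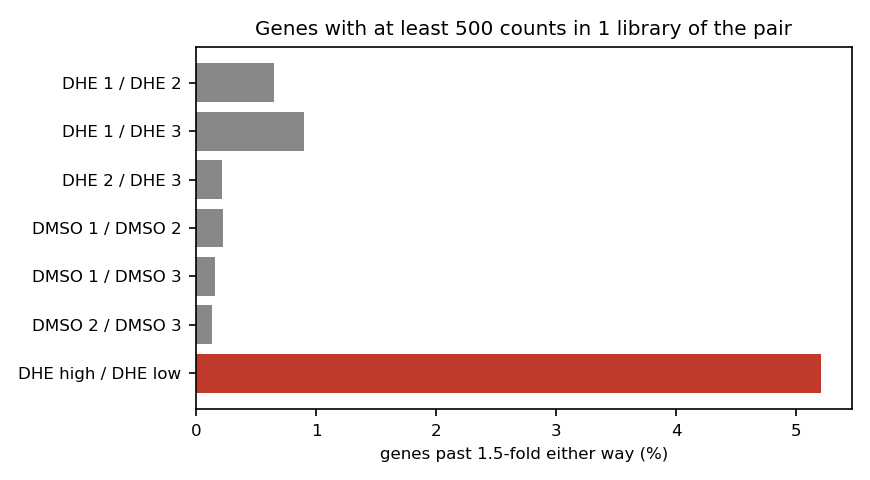
Bars give the percentage of genes with at least 500 counts that differed by at least 1.5-fold either way, for each pair of replicates of the replicated set (grey) and for DHE high against DHE low (red). The dose pair stands at 5.20% and the replicate pairs at 0.134 to 0.898%.

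In the ATF4 integrated stress response, 0 of 34 measured genes were at least 1.5-fold higher in DHE high and 26 were at least 1.5-fold lower, 15 of them by 2-fold or more. The list's median log2 ratio was -0.90, against -0.00 over all kept genes, and its median between replicates of the other set was at most 0.08 in size. The summed level of the list was 7132 CPM in DHE high and 11491 in DHE low.

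The regulators of the programme differed as follows. ATF4 itself, the central transcription factor (chr22:39520559-39522686), was at 545 CPM in DHE high and 966 in DHE low, 1.77-fold higher in DHE low (95% interval 1.74 to 1.81). ATF3, a stress-induced factor that ATF4 activates, was at 26.2 and 67.6 CPM, 2.58-fold higher in DHE low (2.36 to 2.84). DDIT3, which encodes the factor CHOP, was at 15.3 and 34.5 CPM (2.26-fold, 2.0 to 2.56). The level was higher in DHE low for each of these factors, with intervals that lie clear of equality. CEBPB, a C/EBP partner of ATF4 that also serves in the liver acute phase, was at 40.5 and 115 CPM (2.83-fold, 2.63 to 3.04). TRIB3, a pseudokinase that restrains ATF4, was at 624 and 1192 CPM (1.91-fold, 1.87 to 1.95). CHAC1, an enzyme that degrades glutathione (chr15:40953471-40956512), had the largest fold of the list's members with at least 100 counts, with 17.8 and 57.9 CPM (3.25-fold, 2.92 to 3.63). FGF21, a secreted metabolic hormone, had only 12 counts in DHE high and 34 in DHE low, and its interval of 1.57 to 6.6-fold is wide.

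Amino acid transporters were lower in DHE high throughout the list. SLC7A11, the cystine importer (chr4:138164097-138242349), was at 34.3 CPM in DHE high and 106 in DHE low (3.10-fold higher in DHE low, 2.87 to 3.36). SLC7A5, which imports large neutral amino acids, was at 133 and 327 CPM (2.46-fold, 2.36 to 2.57). SLC3A2, the heavy chain that pairs with both of them, was at 107 and 250 CPM (2.34-fold, 2.23 to 2.45). All 3 subunits of these paired transporters thus lay at least 2-fold apart between the libraries. SLC7A1, the arginine and lysine carrier, was at 70.7 and 146 CPM, while SLC38A2, a glutamine carrier, was at 1149 and 1471 CPM, a smaller ratio of 1.28-fold.

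Enzymes of amino acid synthesis followed the same direction. ASNS, which makes asparagine (chr7:97851677-97928441), was at 106 CPM in DHE high and 244 in DHE low (2.30-fold higher in DHE low, 2.19 to 2.41). In the serine pathway, PHGDH, the first enzyme, was at 143 and 261 CPM (1.83-fold). PSAT1, the second, was at 203 and 414 CPM (2.04-fold). PSPH, the last, was at 117 and 168 CPM, below the 1.5-fold line at 1.43-fold. The folds of these serine enzymes differed from each other by more than their counting intervals, with PSAT1 at 1.97 to 2.12, PHGDH at 1.76 to 1.91 and PSPH at 1.36 to 1.5. The mitochondrial folate enzymes SHMT2 and MTHFD2 were 1.83-fold and 2.29-fold higher in DHE low. Aminoacyl-tRNA synthetases, which charge tRNAs, gave 2.50-fold for WARS1, 1.91-fold for GARS1 and 1.52-fold for AARS1, and XPOT, which exports tRNA from the nucleus, gave 2.15-fold. PCK2, the mitochondrial phosphoenolpyruvate carboxykinase, which stood on the list of hepatocyte enzymes, was at 44.9 and 110 CPM (2.46-fold).

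Not every stress gene lay apart. DDIT4, an inhibitor of mTORC1 that is also a HIF target, was at 723 CPM in DHE high and 729 in DHE low, a 1.01-fold difference with an interval that includes 1 (0.988 to 1.03). GDF15, a stress hormone, was at 1058 and 1452 CPM (1.37-fold). PPP1R15A, which restores translation during stress, was at 70.8 and 99.9 CPM (1.41-fold). The ER chaperone and unfolded protein response list, a neighbouring stress arm, had 1 of 24 genes at least 1.5-fold higher and 2 lower in DHE high, with a median of -0.13. Its central chaperone HSPA5 was at 928 and 1008 CPM (1.09-fold higher in DHE low), while HERPUD1, a gene of ER protein degradation, was 1.69-fold higher in DHE low.

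**Figure D3:**
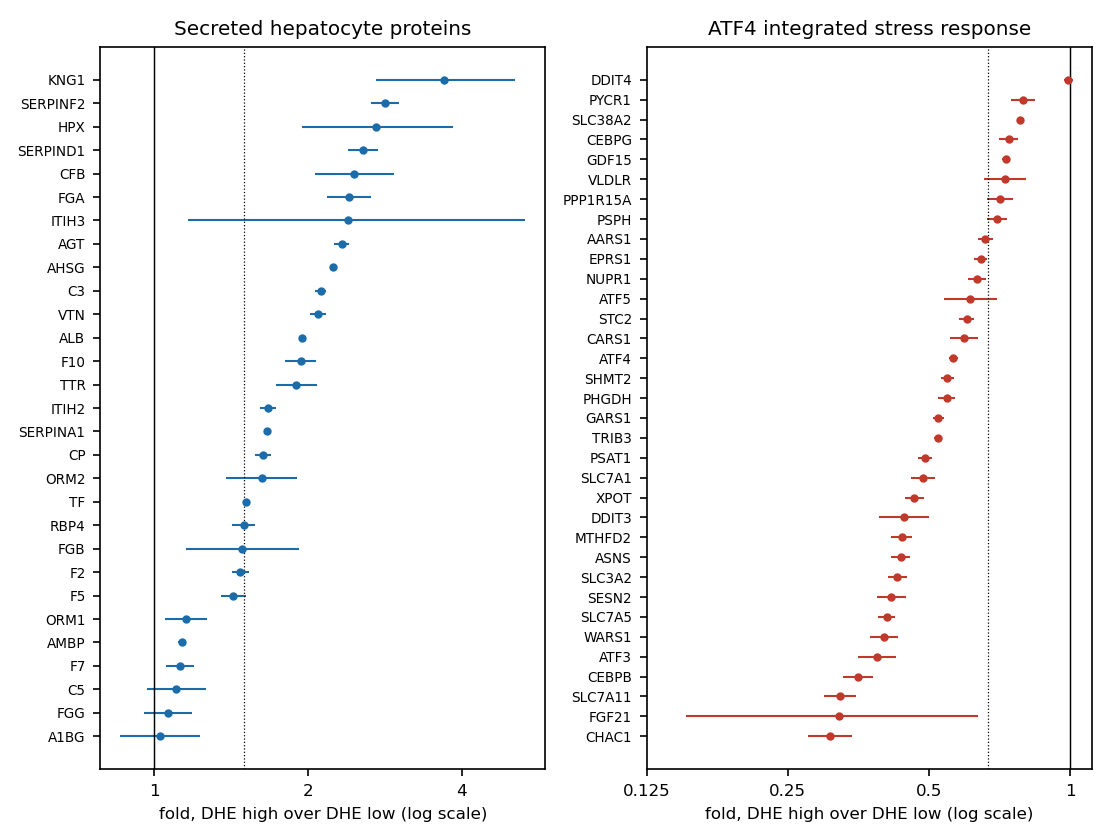
Points give the fold of DHE high over DHE low (log scale) for each measured secreted hepatocyte gene (left) and stress response gene (right), and bars are exact 95% binomial intervals of the counts, which cover counting error only. The solid line marks equality and the dotted line 1.5-fold: 19 of 29 genes lie past it on the left and 26 of 34 on the right.

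Beside the stress response, other groups were lower in DHE high by smaller medians. Of 26 cholesterol synthesis and uptake genes, 0 were at least 1.5-fold higher in DHE high and 4 were at least 1.5-fold lower, with a median of -0.36 against at most 0.11 in size between replicates. INSIG1, which holds the sterol sensor in the ER and is itself a sterol-regulated gene, was at 212 CPM in DHE high and 373 in DHE low (1.76-fold, 1.70 to 1.82). HMGCS1, an early enzyme of the pathway, was at 525 and 854 CPM (1.63-fold, 1.59 to 1.66), and CYP51A1, which demethylates lanosterol, was at 418 and 644 CPM (1.54-fold). The exception to the common direction was SREBF2, the factor that controls these genes, at 841 and 819 CPM (1.03-fold higher in DHE high). In fatty acid synthesis, ACSS2, which makes acetyl-CoA from acetate, was at 132 and 284 CPM (2.16-fold higher in DHE low). FASN, fatty acid synthase, was at 4241 and 6025 CPM (1.42-fold). The list as a whole had 2 of 17 genes past 1.5-fold, both lower in DHE high, a share near the 10.7% of all kept genes that differed either way.

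Of 18 NF-kB inflammatory targets, 4 were at least 1.5-fold lower in DHE high and 0 higher, with a median of -0.40. CXCL8, a neutrophil chemokine, was at 52.5 and 97.1 CPM and ICAM1, an adhesion molecule, at 167 and 309 CPM, each 1.85-fold higher in DHE low. Of 22 NRF2 and glutathione genes, 5 were at least 1.5-fold lower and 0 higher, with a median of -0.23. SLC7A11 is one of the 5 and stands on both lists. TXNRD1, thioredoxin reductase, was at 133 and 212 CPM (1.60-fold) and GCLM, a subunit of the enzyme that starts glutathione synthesis, at 27.3 and 42.0 CPM (1.54-fold). SQSTM1, the autophagy receptor p62, was at 905 and 1467 CPM (1.62-fold). Of 20 p53 targets, 4 were lower and 0 higher, among them CDKN1A, the cell cycle inhibitor p21, at 17.1 and 31.3 CPM (1.83-fold).

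Secreted hepatocyte proteins formed the main group that was higher in DHE high. Of 38 genes on the list 29 were measured, 19 were at least 1.5-fold higher in DHE high, 11 of them by 2-fold or more, and 0 were at least 1.5-fold lower. The median log2 ratio was 0.74, against at most 0.07 in size between replicates. Their summed level was 28041 CPM in DHE high and 15812 in DHE low.

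ALB, serum albumin (chr4:73404287-73421482), was at 11180 CPM in DHE high and 5730 in DHE low, 1.95-fold higher in DHE high (95% interval 1.94 to 1.96). AHSG, the mineral-binding protein fetuin-A, was at 3241 and 1445 CPM (2.24-fold, 2.21 to 2.27). SERPINA1, the elastase inhibitor alpha-1 antitrypsin, was at 2747 and 1651 CPM (1.66-fold), and TF, transferrin, at 5856 and 3868 CPM (1.51-fold). AGT, the precursor of angiotensin, was at 485 and 208 CPM (2.33-fold, 2.25 to 2.41). These abundant plasma protein transcripts were higher in DHE high with narrow counting intervals. Clotting and clot-control genes varied more among themselves. SERPINF2, the plasmin inhibitor, was at 160 and 56.5 CPM (2.83-fold, 2.66 to 3.02) and SERPIND1, heparin cofactor II, at 134 and 52.2 CPM (2.56-fold). KNG1, kininogen, was at 8.63 and 2.34 CPM (3.70-fold, 2.73 to 5.09). F10, clotting factor X, was at 96.6 and 49.9 CPM (1.93-fold), but its neighbour F7 was at 84.5 and 75.2 CPM (1.12-fold). The fibrinogen chains, which are encoded side by side on chromosome 4 and assemble into 1 protein, did not keep a common ratio. FGA was at 57.4 and 23.9 CPM (2.40-fold, 2.18 to 2.66), FGB at 6.74 and 4.54 CPM (1.49-fold, 1.16 to 1.92) and FGG at 29.1 and 27.4 CPM (1.07-fold, 0.956 to 1.19). Complement C3 was at 900 and 425 CPM (2.12-fold) and CFB, complement factor B, at 19.1 and 7.75 CPM (2.46-fold). AMBP, the precursor of alpha-1-microglobulin, was at 1234 and 1088 CPM, a 1.13-fold difference.

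Of 15 measured apolipoprotein and lipoprotein secretion genes, 8 were at least 1.5-fold higher in DHE high and 0 lower, with a median of 0.66. The genes of the cluster on chromosome 11 were all higher in DHE high. APOA1, the main protein of high-density lipoprotein (chr11:116835751-116837622), was at 867 and 346 CPM (2.50-fold, 2.44 to 2.57). APOC3, which slows triglyceride clearance, was at 42.9 and 16.5 CPM (2.60-fold), APOA4 at 22.7 and 12.4 CPM (1.84-fold) and APOA5 at 3.61 and 1.59 CPM (2.28-fold, 1.53 to 3.45). APOB, the scaffold of very-low-density lipoprotein, was at 3676 and 2331 CPM (1.58-fold), and MTTP, which loads lipid onto it, at 60.1 and 24.4 CPM (2.46-fold). Outside the cluster on chromosome 11, APOA2 was at 3877 and 4283 CPM (1.10-fold higher in DHE low) and APOE at 2356 and 2272 CPM (1.04-fold), and both lay near equality.

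Fetal liver genes were led by the same direction. AFP, alpha-fetoprotein (chr4:73436221-73456174), was at 814 and 308 CPM (2.64-fold higher in DHE high, 2.57 to 2.71). IGF2, a fetal growth factor, was at 15241 and 5967 CPM (2.55-fold, 2.54 to 2.57), and the neighbouring imprinted RNA H19 at 63.1 and 29.9 CPM (2.11-fold). CD24, a surface glycoprotein of progenitor cells, was at 1182 and 512 CPM (2.31-fold) and GPC3, a tumour-associated glypican, at 675 and 433 CPM (1.56-fold). Of the 14 genes measured, 5 were at least 1.5-fold higher and 1 lower, with a median of 0.24. KRT19 and EPCAM, of the same list, were 1.13-fold and 1.08-fold higher.

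The factors that control hepatocyte genes differed less. Of 20 measured, 3 were at least 1.5-fold higher in DHE high and 2 lower, with a median of 0.34. CEBPA, a factor of mature hepatocytes, was at 362 and 179 CPM (2.02-fold higher in DHE high, 1.95 to 2.10). CEBPB, of the same family, was 2.83-fold higher in DHE low, as given above. ONECUT1 was at 35.5 and 17.8 CPM (2.0-fold) and FOXA1 at 50.1 and 31.6 CPM (1.58-fold). HNF4A was 1.42-fold higher in DHE high. Metabolic enzymes did not share the size of the secreted group: 3 of 17 were at least 1.5-fold higher and 1 lower, with a median of 0.12. Of 19 cytochrome and xenobiotic genes 1 was higher and 4 lower, among them CYP1A1, a target of the aryl hydrocarbon receptor, at 55.9 and 99.1 CPM (1.77-fold higher in DHE low).

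Signalling targets on the side of DHE high included Wnt and BMP genes. Of 14 Wnt targets, 4 were at least 1.5-fold higher in DHE high and 0 lower, with a median of 0.39. DKK1, a secreted Wnt antagonist, was at 841 and 356 CPM (2.36-fold, 2.30 to 2.42), NKD1, an inhibitor inside the cell, at 16.7 and 6.12 CPM (2.73-fold), LGR5, a receptor of R-spondins, at 63.8 and 33.5 CPM (1.91-fold) and CCND1, cyclin D1, at 69.1 and 39.1 CPM (1.77-fold). AXIN2, a common Wnt readout, was at 4.25 and 3.39 CPM with an interval that includes 1 (1.25-fold, 0.926 to 1.70). Of 18 TGF-beta and BMP genes, 4 were higher and 0 lower, with ID1, a BMP target, at 177 and 75.1 CPM (2.35-fold, 2.22 to 2.49). All 29 G2 and M phase genes were higher in DHE high, none by 1.5-fold, with a median of 0.25 against at most 0.08 in size between replicates. MKI67, a proliferation marker, was at 293 and 204 CPM (1.43-fold), and of 35 replication genes 30 were higher, 2 of them by at least 1.5-fold, with a median of 0.20.

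**Figure D4:**
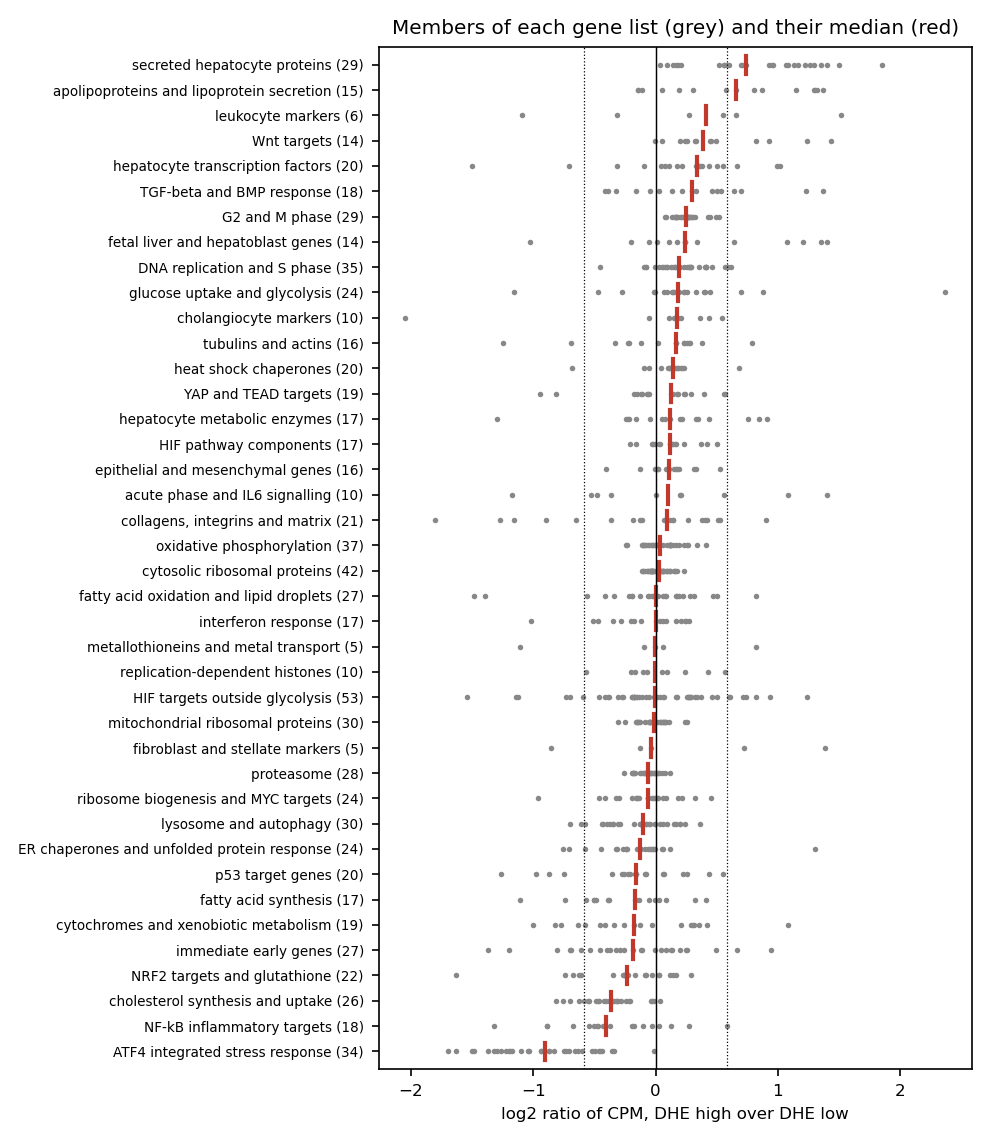
Grey points give the log2 ratio of DHE high over DHE low for each measured member of the gene lists with at least 5 measured members (number in brackets), and red bars their medians. Dotted lines mark 1.5-fold. The stress response (-0.90) and the secreted hepatocyte list (0.74) lie at opposite ends.

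HIF genes differed in both directions, and the median of the targets outside glycolysis was close to that of all genes. Of 17 pathway components, 0 differed by 1.5-fold, and the median was 0.12, against at most 0.0461 in size between replicates. HIF1A, the oxygen-regulated subunit that the series title names, was at 121 CPM in DHE high and 140 in DHE low, 1.16-fold higher in DHE low (1.10 to 1.22). EPAS1, which encodes HIF-2A, was at 248 and 228 CPM (1.09-fold higher in DHE high), its partner ARNT at 67.2 and 60.0 CPM (1.12-fold) and HIF3A at 2.13 and 1.63 CPM with an interval that includes 1 (1.31-fold, 0.842 to 2.04). RNA levels do not measure HIF-1A protein.

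Of 53 HIF targets outside glycolysis, 7 were at least 1.5-fold higher and 6 lower in DHE high, with a median of -0.01. Over all kept genes the shares were 5.6% and 5.12%, each smaller than among these targets. EPO, the red cell hormone (chr7:100720468-100723700), was at 28.7 and 12.1 CPM (2.37-fold higher in DHE high, 2.06 to 2.73). CA9, the hypoxia marker carbonic anhydrase IX, was at 691 and 421 CPM (1.64-fold, 1.60 to 1.68), and CA12 at 35.6 and 21.3 CPM (1.67-fold). LOX, which crosslinks collagen, was at 293 and 153 CPM (1.92-fold), and PLOD1, a collagen lysyl hydroxylase, at 307 and 174 CPM (1.77-fold). On the other side stood IGFBP1, a secreted binding protein of insulin-like growth factors, at 160 and 465 CPM (2.91-fold higher in DHE low, 2.81 to 3.02), IGFBP3 at 78.7 and 174 CPM (2.21-fold) and LOXL2, a relative of LOX, at 30.2 and 66.1 CPM (2.19-fold). Oxidases of 1 family, LOX and LOXL2, thus differed in opposite directions.

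Several other standard HIF targets differed by less than 1.5-fold. VEGFA, the vessel growth factor, was at 373 and 370 CPM (1.01-fold, 0.978 to 1.04). NDRG1 was at 1296 and 1232 CPM (1.05-fold higher in DHE high) and ADM, adrenomedullin, at 160 and 173 CPM (1.08-fold higher in DHE low). ANGPTL4 was at 104 and 86.7 CPM (1.19-fold), BNIP3, a mitophagy receptor, at 221 and 171 CPM (1.29-fold), and EGLN3, an oxygen-sensing hydroxylase, at 20.4 and 14.4 CPM (1.42-fold), each higher in DHE high. CITED2, which competes with HIF for its coactivator, was at 171 and 127 CPM (1.34-fold higher in DHE high). Of 24 glycolysis genes, 3 were at least 1.5-fold higher and 1 lower, with a median of 0.19, against at most 0.0531 in size between replicates. In all, 19 of the 24 were higher in DHE high by any fold. PFKFB3, a regulator of glycolytic rate, was at 262 and 161 CPM (1.63-fold higher in DHE high), LDHA at 1895 and 1505 CPM (1.26-fold), PGK1 at 1688 and 1438 CPM (1.17-fold) and SLC2A1, the glucose importer, at 172 and 164 CPM (1.05-fold). PDK1, a kinase that inhibits pyruvate dehydrogenase, was at 48.1 and 58.2 CPM (1.21-fold higher in DHE low).

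The peptidylarginine deiminases could not be compared. PADI2 had 2 counts in DHE high and 0 in DHE low, and PADI1, PADI3, PADI4 and PADI6 had 0 in both, which allows up to 0.12 CPM in DHE high and 0.132 in DHE low for each gene at 0.

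Housekeeping groups lay close to equality. None of 42 cytosolic ribosomal protein genes, 30 mitochondrial ribosomal protein genes, 37 oxidative phosphorylation genes or 28 proteasome genes reached 1.5-fold in either direction, with medians of 0.03, -0.01, 0.04 and -0.06.

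The genes with the largest folds at 5 CPM or more were ranked by the interval bound nearest to equality, 12 in each direction, and that ranking is a description. On the side of DHE high, UNC93A, a membrane protein (chr6:167269032-167316014), was at 26.4 and 5.90 CPM (4.47-fold, 3.70 to 5.42). AGXT, the liver enzyme that detoxifies glyoxylate (chr2:240868824-240880500), was at 15.5 and 3.57 CPM (4.34-fold, 3.41 to 5.59). TMPRSS6, a hepatocyte protease that lowers hepcidin (chr22:37065436-37110536), was at 26.1 and 6.78 CPM (3.85-fold, 3.22 to 4.61). NPPB, the natriuretic peptide BNP (chr1:11857464-11858945), had the highest CPM of the 12, with 352 and 124 CPM (2.83-fold, 2.71 to 2.95). ANPEP, an aminopeptidase, was at 69.3 and 22.6 CPM (3.07-fold). ISM2, LGI4, FABP5, ATP2B2, KNG1, FXYD1 and SERPINF2 made up the 12, with folds from 2.83 to 5.18.

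On the side of DHE low, FUT1 and FUT3, fucosyltransferases that build blood group sugars, were at 6.30 and 26.3 CPM (4.18-fold, 3.50 to 5.02) and at 5.62 and 23.2 CPM (4.12-fold). S100P, a calcium-binding protein (chr4:6693878-6697170), was at 11.2 and 43.6 CPM (3.90-fold, 3.41 to 4.48). UNC5B, a netrin receptor, was at 1.0 and 7.93 CPM (7.90-fold), and KLHDC7B at 0.723 and 7.71 CPM (10.7-fold, 6.56 to 18.4). FABP3, PLA2G3, CHAC1 and SLC7A11 were also among the 12. CDRT4 had 0 counts in DHE high and 116 in DHE low, at least 42.4-fold higher in DHE low against a floor of 3 counts. That figure leaves out the counting error of the 116 counts, and the exact interval of the fold starts at 34.0. The gene had 0 counts in 3 of the 6 replicated libraries as well, and up to 4.61 CPM in another. BIVM-ERCC5, a readthrough transcript that shares its exons with 2 single genes, was at 0.642 and 10.9 CPM and ranged from 0 to 11.7 CPM among the replicates. RGPD8, 1 of several near-identical copies, was at 6.34 and 22.2 CPM and ranged from 45.0 to 112 CPM among the replicates. Estimated counts of these last 3 genes depend on how reads are divided between overlapping or similar transcripts. At the edge of the ranking, SERPINF2 had a bound of 2.66 and IGDCC3, just outside, 2.64, and on the other side SLC7A11 had 2.87 and IGFBP1, just outside, 2.81.

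**Figure D5:**
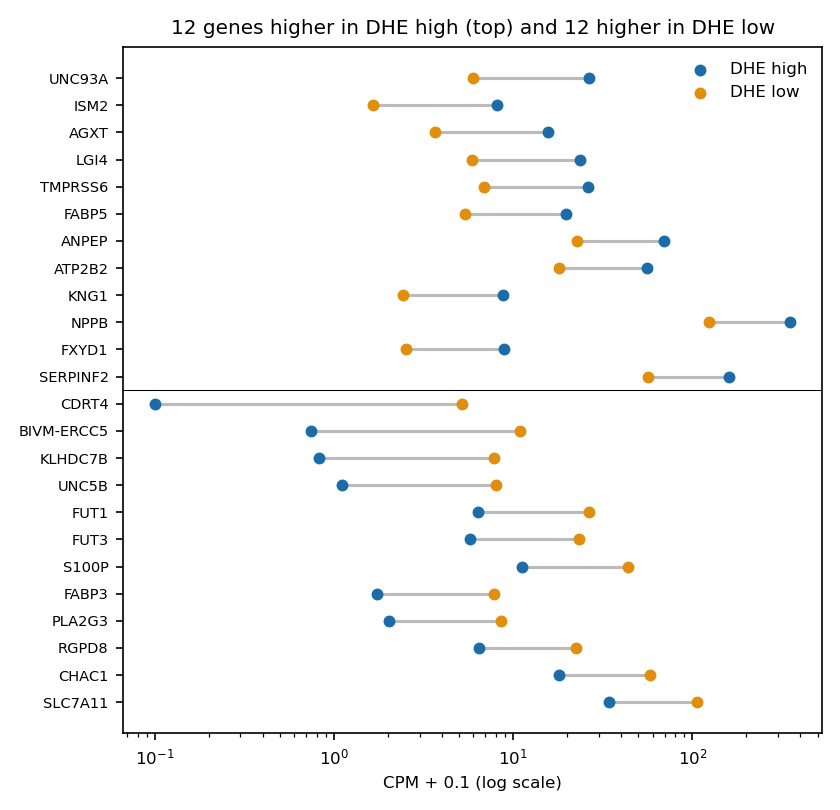
Points give CPM plus 0.1 (log scale) in DHE high (blue) and DHE low (orange) for the 12 genes ranked first in each direction. CDRT4 has 0 counts in DHE high, and NPPB has the highest CPM shown, at 352 and 124.

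The replicated set gives a separate readout of DHE against DMSO in libraries that the dose comparison did not use. Among 14492 genes tested there, edgeR called 1945 higher in DHE (13.4%) and 1858 lower (12.8%) at an adjusted p of 0.05. Nothing in the labels says that its replicates were separate cultures, so these p-values measure only the spread between those libraries. Of the 709 tested genes that were at least 1.5-fold higher in DHE high than in DHE low, 94 (13.3%) rose and 174 (24.5%) fell with DHE in that set, against 14.6% and 13.5% of all 13034 kept genes tested. Of the 630 tested genes that were at least 1.5-fold lower in DHE high, 65 (10.3%) rose and 86 (13.7%) fell. No test of these shares was made.

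In the replicated set the stress response was split: of 33 genes tested, 8 rose and 7 fell, and the median log2 change was -0.02. Over all genes tested there, 13.4% rose and 12.8% fell. ATF4 was at 365, 360 and 369 CPM with DMSO and 387, 363 and 371 with DHE (log2 change 0.03 ± 0.05 SE, adjusted p = 0.649, edgeR). The 2 groups overlapped, and both lay below the 545 and 966 CPM of the dose set, where levels were scaled separately. ASNS was at 49.99, 50.6 and 53.3 CPM with DMSO and 67.3, 58.0 and 56.3 with DHE (0.24 ± 0.07, adjusted p = 0.0268, edgeR). CHAC1 was at 7.34, 8.18 and 8.48 CPM with DMSO and 8.19, 6.80 and 6.27 with DHE (-0.18 ± 0.13, adjusted p = 0.350, edgeR). ASNS thus rose without overlap between its groups, and CHAC1 did not pass the test.

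Secreted hepatocyte genes split in the replicated set, with 7 rising and 12 falling of 33 tested, beside 13.4% and 12.8% of all tested genes. ALB fell with DHE, from 6557, 6021 and 6153 CPM to 5422, 4808 and 4799 (log2 change -0.32 ± 0.06, adjusted p = 0.00261, edgeR). AFP fell from 188, 184 and 183 CPM to 160, 150 and 145 (-0.29 ± 0.05, adjusted p = 0.00146, edgeR). In both cases the groups did not overlap. APOA1 rose from 305, 268 and 286 CPM to 382, 328 and 332 (0.28 ± 0.07, adjusted p = 0.00961, edgeR), and SERPINF2 rose from 122, 130 and 140 CPM to 159, 179 and 176 (0.40 ± 0.06, adjusted p = 0.000651, edgeR). So of these 4 genes, all higher in DHE high than in DHE low, 2 fell and 2 rose with DHE. AFP is named from the fetal liver list and APOA1 from the apolipoprotein list. These 4 are examples and do not give the balance of the secreted list.

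Of 26 cholesterol genes 22 rose in that set and 0 fell, among them HMGCS1 from 116, 123 and 118 CPM to 170, 146 and 154 (0.40 ± 0.06, adjusted p = 0.000422, edgeR), whereas in the dose set this gene was lower in DHE high than in DHE low. Of 53 HIF targets outside glycolysis 27 fell, 3 rose and the others were not called, beside 12.8% of all tested genes that fell and 13.4% that rose. VEGFA fell from 680, 734 and 728 CPM to 491, 568 and 538 (-0.42 ± 0.06, adjusted p = 0.000337, edgeR), and it lay near equality between the 2 doses. EPO fell from 9.45, 8.32 and 11 CPM to 6.01, 5.83 and 5.28 (-0.75 ± 0.13, adjusted p = 0.00134, edgeR), and it was the HIF target outside glycolysis with the largest fold in favour of DHE high in the dose set.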

How the data were processed

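RNA was extracted with TRIzol and polyadenylated RNA was made into libraries with a NEBNext Ultra kit, per the labels' protocols. The authors deposited RSEM gene tables whose expected counts (estimated, with no normalization) are named as such per the file headers. A second column, TPM, is corrected by the authors' RSEM run for the lengths of transcripts and the size of the library, as the header names it. The submitters' processing notes name GRCh38. No source used here names the aligner or a strand setting, and overlapping or antisense genes and near-identical copies are therefore uncertain. By transcript accession 25649 of 26475 genes (96.9%) matched RefSeq of GRCh38.p14, the source of the symbols and positions printed.

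The deposited expected counts were rounded to integers. CPM used TMM factors (edgeR 4.0.16, R 4.3.3) within each set, log2 ratios a prior count of 2, and a gene was kept where either library had 20 or more counts. Counts of genes past a fold use these log2 ratios. Folds of single genes are ratios of CPM, with exact Clopper-Pearson 95% binomial intervals that cover counting error only. The replicated set, with 26997899 to 36267216 counts per library, was tested with edgeR's two-sided quasi-likelihood test and Benjamini-Hochberg adjustment at 0.05. Its SE values are not an edgeR output: each is the size of the log2 change divided by the square root of the test's F statistic. The scripts were tested on simulated data.

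The 42 gene lists and the comparison itself were chosen with earlier results of these data known. Genes named are the 12 ranked first in each direction, up to 4 members per list with the largest ratio and at least 100 counts, the 3 most abundant per list and 18 HIF genes. Further list members were named after their values were seen. A few of these genes are not reported here. Alternatives were other scaling factors, prior counts and filters, log2(TPM + 1) and log2(TPM + 0.1), and for the replicated set DESeq2 1.42.0, limma 3.58.1, a replicate block and leaving out each library. Figures were drawn with matplotlib 3.10.9.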

Additional observations from a re-analysis of the deposited data

How the results depend on the processing

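Counts of genes past a fold depended on the low-count filter. With no filter 1641 genes were at least 1.5-fold higher and 1967 lower in DHE high, and 627 and 780 at 2-fold. With at least 100 counts the numbers were 415 and 371, and 121 and 93 at 2-fold. With at least 500 counts, an alternative chosen after seeing the data, they were 201 and 196, and 59 and 41. Requiring the interval to lie past 1.5-fold left 282 and 248. On log2(TPM + 1) 361 genes were 1.5-fold higher and 471 lower, and 89 and 108 at 2-fold, and on log2(TPM + 0.1) 628 were 1.5-fold higher and 762 lower. With library totals alone the split at 1.5-fold was 621 higher and 840 lower, with the median of all genes at -0.07. Under these 3 scalings more genes were thus lower than higher in DHE high, the reverse of 737 against 674.

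The medians of the 7 leading lists, taken relative to all genes, kept their size under every alternative tried. They were -0.93 to -0.87 for the stress response and 0.70 to 0.74 for secreted hepatocyte proteins. HIF targets outside glycolysis, 1 of the 7 lists, lay at -0.01 and had no clear direction to keep. Of 328 values for 33 other lists 15 moved by more than the list's spread between replicates. A change of direction was looked for only in lists whose median lay at least 1.5-fold from that of all genes. No list among these 33 did, so a change of direction could not be counted for them. Of 273 named genes, 114 moved beyond their counting interval with library totals alone. A change of direction was looked for only in genes at least 1.5-fold apart, and 0 were found. Genes nearer to equality could have changed sign without being counted.

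In the replicated set, leaving out 1 library gave 1329 to 2032 genes higher and 1242 to 1948 lower in DHE. DESeq2 gave 2017 and 1910, and limma on log2(TPM + 1) 497 and 448. The cause of the lower limma counts was not tested. With replicate number as a block the counts were 2250 and 2186, but same-numbered libraries did not deviate together (r = 0.085, 0.0525 and -0.0477), so they share only a number. Of 117 named genes called there, limma lost 58, leaving out 1 library lost 5 to 17, and the block lost 0.

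Each dose has 1 library. Counting intervals do not cover variation between cultures, and at 2-fold the share of all kept genes that differed, 3.49%, lay just above the 1.96 to 3.37% between replicates.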
